A study of Homo sapiens with 10 samples.

Results

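Protein entry into the endoplasmic reticulum (ER) and N-glycosylation were described here through 45 genes, chosen by symbol from the 60554 genes of the annotation, in 10 RNA-seq libraries of Caco-2 cells. Caco-2 cells derive from a colon carcinoma and resemble enterocytes when grown as a monolayer. All 10 libraries came from cells that carried dCas9-KRAB, a Cas9 unable to cut DNA and fused to a repressor domain, and that descended from 1 stable clone selected with puromycin. The clone received lentivirus with a guide RNA against the long non-coding RNA LHFPL3-AS2 (groups LHFPL3-AS2_g1 with 3 libraries and LHFPL3-AS2_g2 with 2, called g1 and g2 here) or with an empty guide plasmid (gCtl, 5 libraries), and these vectors carried hygromycin resistance. Bulk RNA was measured, so fewer cells of a kind and less RNA per cell cannot be told apart.

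Most secreted and membrane proteins enter the ER while they are made. The signal recognition particle (SRP) brings the ribosome to its receptor, the chain passes through the SEC61 translocon with its partner complexes, and signal peptidase removes the signal peptide. A sugar tree built step by step on the lipid dolichol is moved onto asparagines of the chain by the oligosaccharyltransferase, and glucosidases then trim its glucoses, which lets calnexin and calreticulin hold the protein while it folds. In the intestinal epithelium this route makes the brush border enzymes, junction proteins and secreted proteins.

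The 45 genes comprised 6 of SRP and its receptor, 9 of the translocon, 5 of signal peptidase, 9 of the oligosaccharyltransferase, 13 of the dolichol pathway and 3 of glucose trimming. Of these, 43 were among the 11640 protein-coding genes tested, those over 3 RPM in 2 or more of the 10 libraries, where RPM is estimated counts per 1000000 of the library. The other 2 were near the limit of detection. TUSC3, an accessory subunit of the oligosaccharyltransferase, held about 1 count in a single gCtl library and 0 in the other 9, and a count of 0 allows up to 3 counts in a library. ALG12, a mannosyltransferase, held 57 counts in all 10 libraries together. Levels are given as CPM, counts per 1000000 after TMM normalization (a scaling that balances library composition), for libraries 1 to 5 of gCtl, 1 to 3 of g1 and 1 and 2 of g2, in an order that carries no meaning. A gene was called changed at an adjusted p of at most 0.05 in edgeR's quasi-likelihood test, with Benjamini-Hochberg adjustment over all 11640 genes, and a fold change of at least 1.5. Every adjusted p below comes from that test unless another test, setting or left-out library is named with it. In that case the adjustment is over the genes tested there. Values after ± are standard errors (SE) on the log2 scale or, where marked SD, standard deviations.

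Library totals lay between 3838803 and 8730468 estimated counts, and in each of 14 pairs of libraries within a group the counts differed beyond what sampling of reads gives (chi-square per degree of freedom 4.28 to 26.0). Nothing in the labels says whether the libraries of a group were separate cultures, so p-values measure the spread between these libraries. LHFPL3-AS2 itself was not lower in these reads with its guides, at 0.84 to 3.73 RPM in gCtl, 2.03 to 3.95 in g1 and 2.16 and 6.01 in g2. These values rest on few reads, 4.39 to 44.0 counts in a library. The authors reported its reduction with both guides by qPCR. Every direction below is therefore that of libraries labelled g1 or g2. On the first principal component, which held 44.5% of the variance, gCtl replicate 5 lay nearest to the guide libraries, at -14.4 against -38.9 to -29.0 for the other gCtl libraries and 17.3 to 51.3 for the guide libraries. Of 12 epithelial markers 10 passed the filter, EPCAM, VIL1 and CDX2 among them, and the list summed to 1920 to 2430 CPM in gCtl, 1850 to 2440 in g1 and 2130 in both g2 libraries, while LGALS4 did not pass and CDX1 had at most 2 counts in a library. EPCAM, KRT18 and APOA1 made up most of that sum, and within the list KRT20 was higher with g2 (log2 fold change 1.91 ± 0.40, SE, adjusted p = 0.00308) and KRT18 lower (-0.78 ± 0.28, SE, adjusted p = 0.0494). The summed fibroblast markers moved with the groups, at 16.9 to 38.3 CPM in gCtl, 9.74 to 18.7 in g1 and 7.53 and 11.2 in g2, mostly through PDGFRA, with LUM at 0 in all g1 libraries. Immune markers summed to 10.6 to 20.2 CPM in gCtl, 13.3 to 28.2 in g1 and 21.8 and 23.5 in g2, mostly LYZ. Endothelial markers summed to at most 3.69 CPM in gCtl, 9.91 in g1 and 4.80 in g2, with VWF at 0 outside 1 g1 library. Goblet and enteroendocrine markers summed to 2.64 to 10.6 CPM in gCtl, 0.833 to 2.11 in g1 and 8.43 and 11.3 in g2, and MUC2 had 34 and 33 counts in the g2 libraries against at most 1 elsewhere. The part of these markers in the results below was not tested.

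With g1 and g2 as 1 group of 5, 14 of the 43 tested members were called against gCtl, 13 lower and 1 higher. That is 30.2% lower and 2.33% higher, where 11.0% of all genes tested were called lower and 8.14% higher. The median log2 fold change of the members was -0.32, against 0.02 over all genes tested, and 32 of 43 lay below 0. In 10 members all 5 guide libraries were below all 5 gCtl libraries (23.3%, against 8.33% of all genes), and in 0 members were they all above (against 7.13% of all genes). The 10 were SRPRB, SEC62, SSR4, SPCS1, SEC11A, STT3A, DPM1, DPM3, DPAGT1 and ALG8. The guides were also compared with gCtl singly. With g1, 7 members were called lower, 16.3% against 9.95% of all genes. No member was called higher with g1 by edgeR or DESeq2, where 3 had an unadjusted p under 0.05 with either tool and the share over all genes was 6.81%. With g2, 8 members were called lower (18.6%, against 13.0% of all genes) and 1 higher (2.33%, against 10.7%). The comparisons share the gCtl libraries. SRPRB was the member called in both. Compared directly, 2 members were lower with g2 than with g1 at the threshold, SEC61A1 and SEC11A, which is 4.65% of the members against 4.98% of all genes called in either direction.

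**Figure D1:**
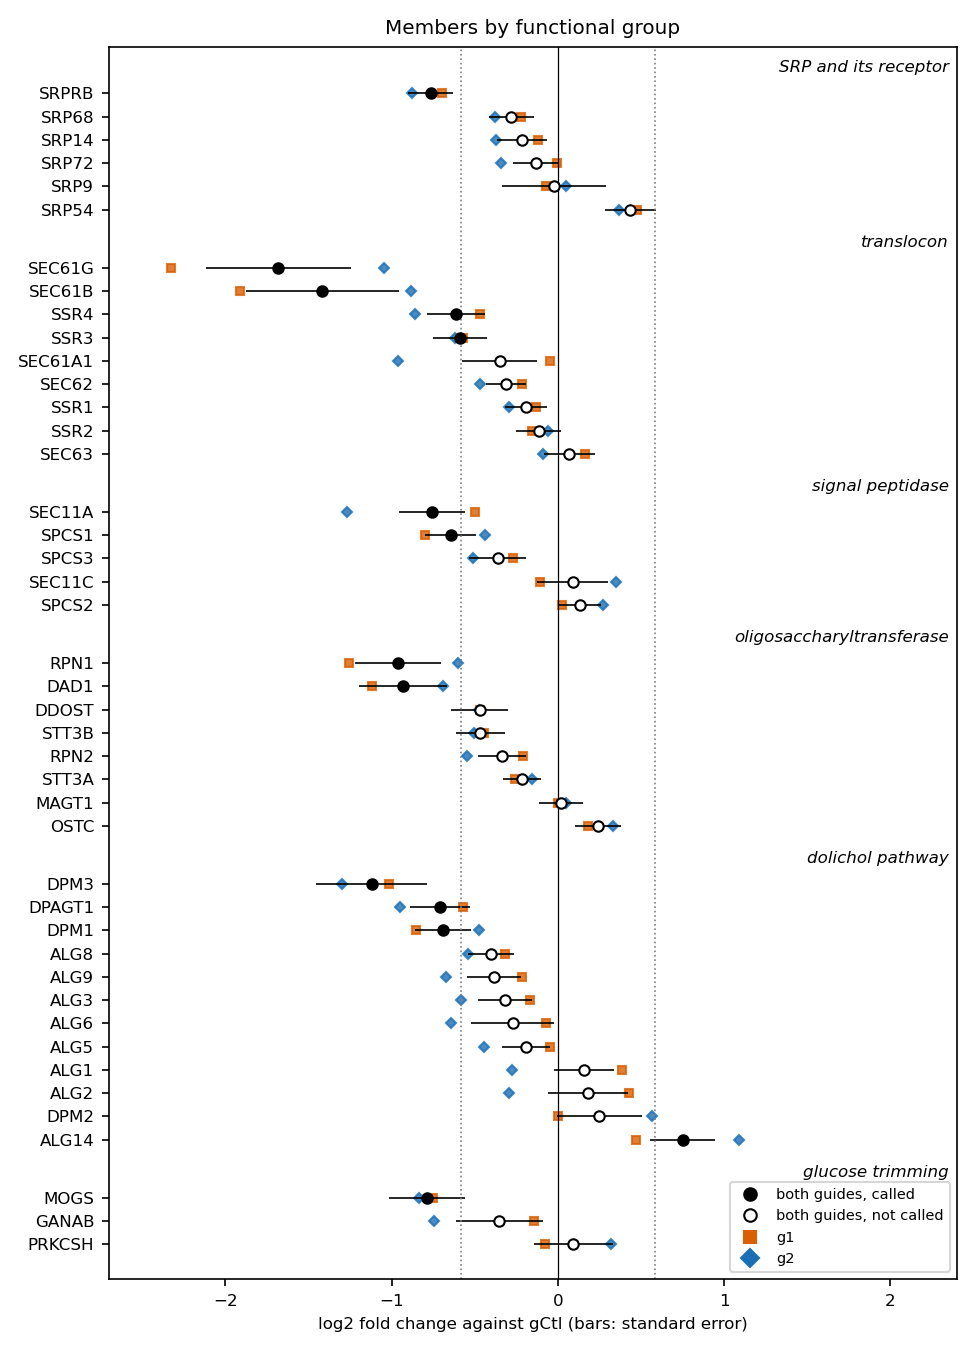
Log2 fold change against gCtl (x axis) of the 43 members tested, by functional group, where circles are both guides together (filled where called) with standard errors, squares are g1 and diamonds g2, and dotted lines mark a 1.5-fold change. The 13 filled circles on the left run from SSR3 at -0.59 to SEC61G at -1.68, and ALG14 is the filled circle on the right, at 0.75.

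Among SRP and its receptor, the gene that fell was SRPRB (ENSG00000144867.11, chromosome 3, 133784033 to 133825772, GRCh38), the membrane-anchored receptor subunit that holds the SRP receptor on the ER. SRPRB was at 88.7, 83.9, 91.2, 93.1 and 95.7 CPM in gCtl, 59.6, 60.1 and 48.4 in g1 and 39.8 and 58.7 in g2. Every guide library lay below every gCtl library, and the gCtl values stayed within a narrow band. Its log2 fold change was -0.76 ± 0.14 (SE, adjusted p = 0.00136) with both guides, -0.69 ± 0.15 (SE, adjusted p = 0.00482) with g1 and -0.87 ± 0.18 (SE, adjusted p = 0.00246) with g2. Each of the 3 calls was lost only when tested against a 1.5-fold change itself (glmTreat), among 21, 20 and 19 alternatives. The 5 subunits of the particle were not called. Their log2 fold changes ran from -0.28 for SRP68 to 0.44 for SRP54, the GTPase that binds the signal peptide (adjusted p = 0.0512), with SRP72, SRP14 and SRP9 between them at -0.13, -0.22 and -0.02. A share of 4.99% of the summed counts of SRP9 and its pseudogene lay in the pseudogene, the largest such share of any member.

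In the translocon group, 4 of 9 genes were called lower with both guides together (44.4%, against 11.0% of all genes), the small channel subunits SEC61B and SEC61G and the TRAP subunits SSR3 and SSR4, and SEC61A1 was called with g2. The group's median log2 fold change was -0.35 with both guides, -0.22 with g1 and -0.62 with g2. SEC61G and SEC61B were lowest with g1, though their difference between the guides did not pass the test (adjusted p = 0.205 and 0.365), and SEC61A1 was lowest with g2.

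SEC61G (ENSG00000132432.13, chromosome 7, 54752250 to 54759974) encodes the gamma subunit of the protein channel. It was at 36.0, 9.91, 23.2, 31.3 and 8.09 CPM in gCtl, 5.17, 3.38 and 4.14 in g1 and 14.5 and 6.40 in g2. All 3 g1 libraries lay below all gCtl libraries, while g2 replicate 1 lay above gCtl replicates 2 and 5, the gCtl libraries with the least SEC61G. On the log2 scale the difference from gCtl was -1.68 ± 0.44 (SE, adjusted p = 0.0128) with both guides, -2.33 ± 0.47 (SE, adjusted p = 0.00344) with g1, the largest of any member, and -1.05 ± 0.50 (SE, adjusted p = 0.13) with g2. The g1 call held under all 20 alternatives. SEC61B (ENSG00000106803.9, chromosome 9, 99222064 to 99230615), the beta subunit, showed 27.5, 8.81, 20.1, 23.4 and 5.80 CPM in gCtl, 4.17, 2.53 and 6.33 in g1 and 14.7 and 3.92 in g2. The same gCtl libraries, 2 and 5, were low, and g1 replicate 3 and g2 replicate 1 lay above the lowest of them. Relative to gCtl the log2 fold change was -1.42 ± 0.46 (SE, adjusted p = 0.0357) with both guides, -1.91 ± 0.52 (SE, adjusted p = 0.0167) with g1 and -0.88 ± 0.55 (SE, adjusted p = 0.253) with g2. The call with both guides was lost without gCtl replicate 1, 3 or 4 or g1 replicate 1, 2 or 3 or g2 replicate 2 (log2 fold changes -1.42 to -1.18, adjusted p = 0.0645 to 0.0999), and the g1 call without g1 replicate 1 or 2 (log2 fold changes -1.86 to -1.67, adjusted p = 0.0611 to 0.0717). DESeq2 did not call SEC61B with both guides (log2 fold change -1.42, adjusted p = 0.0524). Both genes rest on few reads, down to 12 counts in a library for SEC61B and 16 for SEC61G.

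SEC61B and the dolichol pathway gene ALG2 (ENSG00000119523.9, chromosome 9, 99216426 to 99221956) begin back to back on opposite strands of chromosome 9, with 107 bases between their annotated starts, of which 60.7% are G or C. The stretch is shown because neighbours that share a start region can be read side by side. It is the RefSeq window around the start of ALG2 (GRCh38.p14, chr9:99221893-99222192, minus strand, written in the direction of ALG2), with the bases between both starts in capitals.
ALG2: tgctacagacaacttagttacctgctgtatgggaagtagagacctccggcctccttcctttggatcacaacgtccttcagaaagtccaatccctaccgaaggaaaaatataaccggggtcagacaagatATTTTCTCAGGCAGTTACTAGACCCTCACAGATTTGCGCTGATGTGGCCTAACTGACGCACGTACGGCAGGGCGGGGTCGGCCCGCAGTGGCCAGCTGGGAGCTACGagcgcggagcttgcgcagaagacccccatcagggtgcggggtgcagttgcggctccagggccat
ALG2, which adds mannoses to the dolichol-linked sugar, was at 27.5, 18.4, 21.1, 25.0 and 20.4 CPM in gCtl, 28.8, 31.2 and 30.4 in g1 and 26.0 and 10.8 in g2. All 3 g1 libraries were above all gCtl libraries for ALG2, while for SEC61B they were at most at 6.33 CPM. The log2 fold change of ALG2 was 0.43 ± 0.23 (SE, adjusted p = 0.197) with g1 and was not called, and the difference between the neighbours was not tested. All counts of ALG2 fell on a transcript annotated as subject to nonsense-mediated decay.

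SEC61A1 (ENSG00000058262.9, chromosome 3, 128051641 to 128071683) encodes the pore-forming subunit of the channel. Its level was 20.2, 22.9, 29.5, 22.9 and 22.2 CPM in gCtl, 20.3, 23.0 and 25.0 in g1 and 9.50 and 14.5 in g2. The g1 libraries lay inside the gCtl range and both g2 libraries lay below every other library. The log2 fold change was -0.05 ± 0.19 (SE, adjusted p = 0.878) with g1, -0.96 ± 0.23 (SE, adjusted p = 0.00683) with g2 and -0.91 ± 0.24 (SE, adjusted p = 0.0422) for g2 against g1. The g2 call was lost without g2 replicate 1 (log2 fold change -0.70, adjusted p = 0.0573). The call between the guides was lost without g1 replicate 1, 2 or 3 or g2 replicate 1 (log2 fold changes -0.99 to -0.64, adjusted p = 0.0681 to 0.165) and with upper-quartile scaling (adjusted p = 0.0508). Of the SEC61A1 counts, 97.4% were assigned to a transcript annotated as a processed transcript, so most of its reads were not placed on a coding isoform.

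The TRAP complex (SSR1 to SSR4) sits beside the channel and helps some signal peptides to open it. SSR4 (ENSG00000180879.13, chromosome X, 153793516 to 153798505), its delta subunit, was at 129, 149, 139, 117 and 110.1 CPM in gCtl, 93.7, 94.3 and 91.1 in g1 and 93.4 and 48.8 in g2. All guide libraries were below all gCtl libraries, with g2 replicate 2 the lowest. Its log2 fold change was -0.61 ± 0.17 (SE, adjusted p = 0.0192) with both guides, -0.47 ± 0.18 (SE, adjusted p = 0.0774) with g1 and -0.86 ± 0.21 (SE, adjusted p = 0.00867) with g2. The call with both guides was lost without gCtl replicate 2 or g2 replicate 2 (log2 fold changes -0.56 to -0.48, adjusted p = 0.0141 to 0.0555), and the g2 call without g2 replicate 2 (log2 fold change -0.46, adjusted p = 0.14). Of the SSR4 counts, 62.1% lay on a transcript annotated as a retained intron and 32.6% on coding transcripts. SSR3 (ENSG00000114850.6, chromosome 3, 156540140 to 156555184), the gamma subunit, was at 184, 164, 145, 170.2 and 104 CPM in gCtl, 113, 103 and 93.5 in g1 and 80.0 and 119 in g2. The gCtl replicate 5 lay among the guide libraries and the other 4 gCtl libraries above all of them. On the log2 scale the difference from gCtl was -0.59 ± 0.16 (SE, adjusted p = 0.0173) with both guides, -0.57 ± 0.19 (SE, adjusted p = 0.0396) with g1, where the fold was under 1.5, and -0.62 ± 0.21 (SE, adjusted p = 0.0439) with g2. The call with both guides was lost without gCtl replicate 1, 2 or 4 or g1 replicate 3 or g2 replicate 1 (log2 fold changes -0.57 to -0.52, adjusted p = 0.0278 to 0.0497), and with upper-quartile scaling (-0.58, under 1.5-fold). The g2 call was lost without gCtl replicate 1, 2, 3 or 4 or g2 replicate 1 (log2 fold changes -0.64 to -0.37, adjusted p = 0.06 to 0.284), and with only gCtl and g2 in the fit (adjusted p = 0.0637). SSR1 and SSR2, the alpha and beta subunits, were not called and stood at -0.19 and -0.12. SEC62 and SEC63, which serve chains that enter after synthesis, stood at -0.31 and 0.07. SEC62 was not called, though all of its guide libraries (139.6, 136 and 151 CPM in g1, 109 and 129.8 in g2) lay below the lowest gCtl library at 158 CPM.

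Genes of this route are textbook targets of the ER stress response, and its motifs were looked for in RefSeq promoter windows (GRCh38.p14, 250 bases before to 50 after a start, both strands). The table held 40 of the 45 symbols in 57 windows, and lacked MOGS, TUSC3, RPN1, SPCS1 and STT3B. TGACGTGG, the core sequence bound by the factor XBP1, was in 3 of the 57 windows (5.26%) against 256 of all 35116 windows (0.729%). The 3 belonged to SSR4 (chrX:153794418-153794717, plus strand), SEC62 (chr3:169966557-169966856, plus strand) and SSR3 (chr3:156554076-156554375, minus strand), all in the translocon group, of which SSR4 and SSR3 were called. For SSR3 and for SSR4 the whole window lies inside the gene as annotated, so it is that of a start downstream of the first one. The 3 windows are given for a view of where the motif lies, with the match in capitals, which reads CCACGTCA because it is on the opposite strand in each.
SSR4: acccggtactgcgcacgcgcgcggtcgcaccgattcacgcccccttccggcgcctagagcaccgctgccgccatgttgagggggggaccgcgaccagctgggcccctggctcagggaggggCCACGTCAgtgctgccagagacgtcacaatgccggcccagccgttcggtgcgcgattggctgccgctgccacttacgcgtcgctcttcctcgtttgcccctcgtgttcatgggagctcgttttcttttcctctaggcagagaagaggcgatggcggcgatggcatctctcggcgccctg
SEC62: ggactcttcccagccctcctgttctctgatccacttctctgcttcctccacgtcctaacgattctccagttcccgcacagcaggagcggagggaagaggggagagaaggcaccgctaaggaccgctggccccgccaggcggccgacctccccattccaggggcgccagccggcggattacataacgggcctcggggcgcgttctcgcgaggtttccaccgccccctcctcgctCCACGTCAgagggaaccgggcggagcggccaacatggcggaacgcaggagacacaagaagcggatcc
SSR3: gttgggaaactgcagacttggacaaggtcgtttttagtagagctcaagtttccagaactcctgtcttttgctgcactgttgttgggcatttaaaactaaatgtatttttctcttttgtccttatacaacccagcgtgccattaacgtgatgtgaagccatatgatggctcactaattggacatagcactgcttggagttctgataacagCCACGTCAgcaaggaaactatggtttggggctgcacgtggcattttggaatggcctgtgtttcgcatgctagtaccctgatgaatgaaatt
The match covers bases 122 to 129 of the SSR4 window, 234 to 241 of the SEC62 window and 210 to 217 of the SSR3 window. The longer ER stress element, CCAAT and CCACG with 9 bases between them, shares the letters CCACG with the reverse of the first motif. It was in 27 of all windows (0.0769%) and among members in that of ALG12 alone, a gene too low to be tested. A match describes letters in a window, and binding was not measured.

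**Figure D2:**
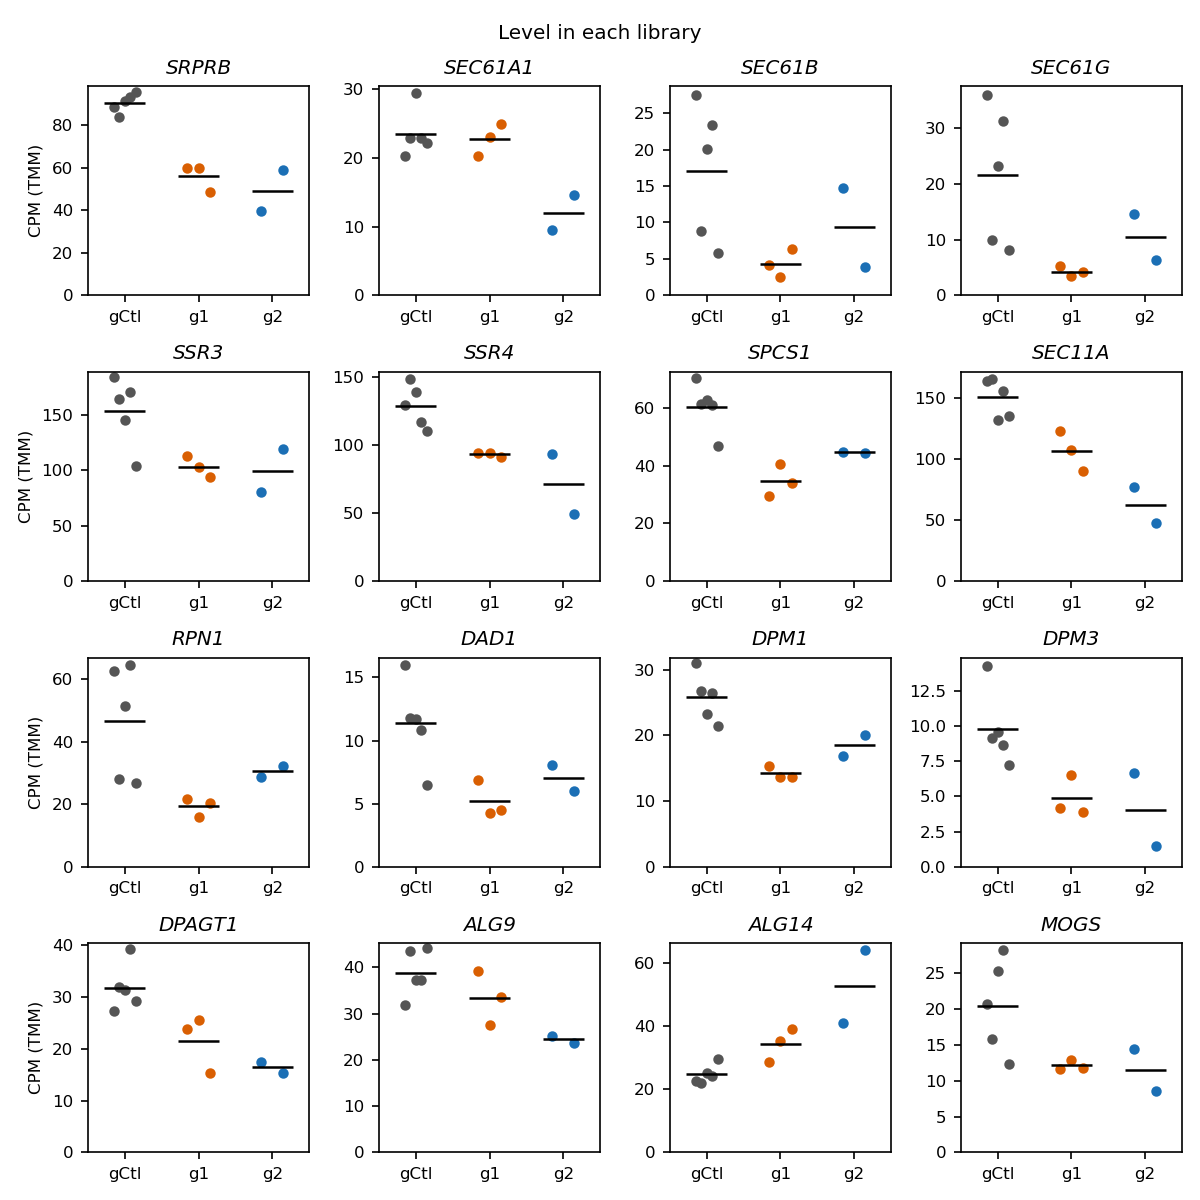
Level in each library (y axis, TMM-normalized CPM, from 0) of the 16 members called in any comparison, where points are libraries and bars are group means. SRPRB, SSR4, SPCS1, SEC11A, DPM1, DPM3 and DPAGT1 have all guide libraries below all gCtl libraries, ALG14 is highest in g2, and in SEC61B, SEC61G and RPN1 gCtl replicates 2 and 5, the second and the fifth grey points, lie well below the other 3.

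Signal peptidase had 2 of 5 subunits called lower with both guides together (40%, against 11.0% of all genes), SEC11A and SPCS1. SEC11A and SEC11C are alternative catalytic subunits, and SPCS1, SPCS2 and SPCS3 are accessory. SEC11A (ENSG00000140612.13, chromosome 15, 84669538 to 84716716) was at 164, 166, 132, 156 and 136 CPM in gCtl, 123, 108 and 90.2 in g1 and 77.5 and 47.7 in g2. The 3 groups did not overlap, with gCtl highest and g2 lowest. Relative to gCtl the log2 fold change was -0.76 ± 0.20 (SE, adjusted p = 0.0137) with both guides, -0.50 ± 0.17 (SE, adjusted p = 0.0486) with g1, under 1.5-fold, and -1.27 ± 0.21 (SE, adjusted p = 0.000528) with g2, a call that held under all 19 alternatives. Between the guides it was -0.78 ± 0.21 (SE, adjusted p = 0.0481), a call that was lost without g1 replicate 1 or 2 or g2 replicate 2 (log2 fold changes -0.77 to -0.44, adjusted p = 0.106 to 0.271) and with DESeq2's size factors (adjusted p = 0.0525).

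SEC11C was at 26.5, 19.1, 20.8, 25.3 and 18.1 CPM in gCtl, 16.0, 19.6 and 25.0 in g1 and 19.0 and 36.3 in g2 and was not called (0.09 on the log2 scale, adjusted p = 0.787). The log2 ratio of SEC11A to SEC11C counts, which does not depend on library scaling, was 2.63, 3.12, 2.67, 2.62 and 2.90 in gCtl, 2.94, 2.46 and 1.85 in g1 and 2.03 and 0.39 in g2. Both g2 libraries and g1 replicates 2 and 3 lay below all gCtl libraries, and g1 replicate 1 lay among them. SPCS1 (ENSG00000114902.13, chromosome 3, 52704955 to 52711146), which also helps the enzyme to tell signal peptides from membrane segments, was at 70.5, 61.3, 62.8, 60.9 and 46.6 CPM in gCtl, 29.3, 40.7 and 34.1 in g1 and 44.6 and 44.5 in g2. All guide libraries lay below all gCtl libraries, though g2 came close to gCtl replicate 5. The log2 fold change was -0.64 ± 0.15 (SE, adjusted p = 0.00777) with both guides, -0.80 ± 0.16 (SE, adjusted p = 0.00313) with g1 and -0.44 ± 0.18 (SE, adjusted p = 0.0862) with g2, and the call with both guides was lost without gCtl replicate 1 or g1 replicate 1 (log2 fold changes -0.58 to -0.56, adjusted p = 0.0176 to 0.0248). SPCS2 and SPCS3 stood at 0.13 and -0.36 and were not called.

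**Figure D3:**
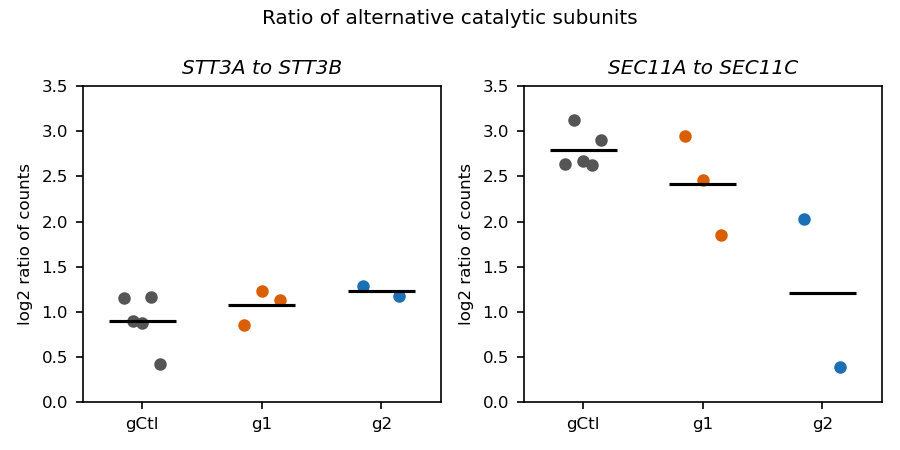
Log2 ratio of counts (y axis) of STT3A to STT3B and of SEC11A to SEC11C in each library, where points are libraries and bars are group means. The SEC11A to SEC11C ratio lies between 2.62 and 3.12 in gCtl and is 0.39 in g2 replicate 2, while the STT3A to STT3B ratio is at most 1.16 in gCtl and is 1.17 and 1.29 in g2, with g1 overlapping both.

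In the oligosaccharyltransferase, 2 of the 8 subunits tested were called lower (25%, against 11.0% of all genes with both guides and 9.95% with g1), RPN1 and DAD1, both with g1 and with both guides together. With g2, 0 of the 8 subunits were called by edgeR or DESeq2, where edgeR called 13.0% of all genes lower and 10.7% higher. Of the 8, 2 had an unadjusted p under 0.05 with either tool, and limma on log2(RPM + 1) called 2. The 8 do not hold every subunit of the enzyme. OST4, a subunit among the further genes described below, was called lower with g2 (log2 fold change -1.22 ± 0.37, SE, adjusted p = 0.0254) and with g1 (-1.84 ± 0.34, SE, adjusted p = 0.00167). KRTCAP2 and TMEM258, subunits among the same further genes, were called with neither guide. RPN1 (ENSG00000163902.11, chromosome 3, 128619970 to 128681075), ribophorin I, is a membrane subunit near the ribosome. It was at 62.5, 27.9, 51.3, 64.5 and 26.9 CPM in gCtl, 21.7, 15.8 and 20.5 in g1 and 28.7 and 32.3 in g2. The g1 libraries were below all others, and both g2 libraries lay just above gCtl replicates 2 and 5. Its log2 fold change was -0.96 ± 0.26 (SE, adjusted p = 0.0158) with both guides, -1.26 ± 0.28 (SE, adjusted p = 0.0054) with g1 and -0.60 ± 0.31 (SE, adjusted p = 0.158) with g2, and the call with both guides was lost without gCtl replicate 4 (log2 fold change -0.82, adjusted p = 0.0504).

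DAD1 (ENSG00000129562.10, chromosome 14, 22564905 to 22589269), a small subunit whose loss destabilizes the complex, was at 16.0, 11.8, 11.7, 10.8 and 6.51 CPM in gCtl, 6.83, 4.22 and 4.51 in g1 and 8.07 and 5.96 in g2. The gCtl replicate 5 lay among the guide libraries and the other gCtl libraries above all of them. On the log2 scale the difference from gCtl was -0.93 ± 0.26 (SE, adjusted p = 0.0191) with both guides, -1.12 ± 0.30 (SE, adjusted p = 0.0164) with g1 and -0.69 ± 0.34 (SE, adjusted p = 0.14) with g2. The call with both guides was lost without gCtl replicate 1 (log2 fold change -0.78, adjusted p = 0.0586), and the g1 call without g1 replicate 2 or 3 (adjusted p = 0.0661 to 0.0721). DAD1 had 20 to 67 counts in a library, and 80.9% of them were on a transcript annotated as a processed transcript.

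The catalytic subunits were not called. STT3A, which works on chains still in the translocon, and STT3B, which also works after synthesis, had log2 fold changes of -0.22 and -0.47 with both guides, the latter at an adjusted p of 0.0319 but under 1.5-fold. STT3A was at 203, 189, 206, 206 and 194 CPM in gCtl, 167, 185 and 149 in g1 and 179.5 and 179 in g2, a small shift with no overlap between gCtl and the guides. The log2 ratio of STT3A to STT3B counts was 0.90 ± 0.30 (SD, n = 5) in gCtl, 1.07 ± 0.20 (SD, n = 3) in g1 and 1.23 ± 0.08 (SD, n = 2) in g2. The g1 libraries overlapped both other groups, and the g2 libraries, at 1.29 and 1.17, lay above the highest gCtl library at 1.16. RPN2 and DDOST stood at -0.34 and -0.47, and DDOST reached the fold minimum and was called without gCtl replicate 5 (log2 fold change -0.59, adjusted p = 0.0166). OSTC, which links the STT3A form of the enzyme to the translocon, stood at 0.24, and MAGT1, the redox subunit of the STT3B form, at 0.02. With TUSC3 near 0, MAGT1 was the member of that pair measured in these cells, at 39.1 to 54.5 CPM in the 10 libraries.

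The dolichol pathway had 3 of 12 genes tested called lower and 1 higher with both guides together (25% and 8.33%, against 11.0% and 8.14% of all genes), namely DPAGT1 and ALG14, of the first steps of the sugar tree, and DPM1 and DPM3, of the mannose donor. DPAGT1 (ENSG00000172269.16, chromosome 11, 119096503 to 119108331), which starts the tree by adding the first sugar phosphate to dolichol phosphate, was at 27.2, 31.9, 31.4, 39.2 and 29.2 CPM in gCtl, 23.8, 25.5 and 15.3 in g1 and 17.6 and 15.4 in g2. All guide libraries were below all gCtl libraries. Relative to gCtl the log2 fold change was -0.71 ± 0.18 (SE, adjusted p = 0.011) with both guides, -0.57 ± 0.19 (SE, adjusted p = 0.0471) with g1, under 1.5-fold, and -0.95 ± 0.23 (SE, adjusted p = 0.00734) with g2, and the g2 call was lost without g2 replicate 2 (log2 fold change -0.85, adjusted p = 0.07). Of its counts, 54.2% lay on a transcript annotated as subject to nonsense-mediated decay.

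ALG14 (ENSG00000172339.9, chromosome 1, 94974407 to 95072945), the membrane anchor of the enzyme that adds the second sugar, was the member that rose. Its level was 22.7, 21.9, 25.3, 24.1 and 29.7 CPM in gCtl, 28.5, 35.2 and 39.1 in g1 and 41.1 and 64.1 in g2. Both g2 libraries lay above every other library, while g1 replicate 1 lay below gCtl replicate 5. The log2 fold change was 0.75 ± 0.19 (SE, adjusted p = 0.0122) with both guides, 0.47 ± 0.18 (SE, adjusted p = 0.0734) with g1 and 1.09 ± 0.19 (SE, adjusted p = 0.00106) with g2. The g2 call held under all 19 alternatives, and the call with both guides was lost without g2 replicate 2 (log2 fold change 0.53, adjusted p = 0.0228).

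DPM1, DPM2 and DPM3 form the synthase that makes dolichol phosphate mannose, the mannose donor inside the ER. DPM1 (ENSG00000000419.12, chromosome 20, 50934867 to 50958555), the catalytic subunit, was at 31.0, 26.8, 23.2, 26.5 and 21.5 CPM in gCtl, 15.3, 13.7 and 13.6 in g1 and 16.9 and 20.1 in g2. Guide and gCtl libraries did not overlap. Its log2 fold change was -0.69 ± 0.17 (SE, adjusted p = 0.00835) with both guides, -0.85 ± 0.18 (SE, adjusted p = 0.00418) with g1 and -0.48 ± 0.20 (SE, adjusted p = 0.0933) with g2. DPM3 (ENSG00000179085.7, chromosome 1, 155139891 to 155140595), which tethers the catalytic subunit to the membrane, was at 14.2, 9.18, 9.59, 8.66 and 7.21 CPM in gCtl, 4.17, 6.54 and 3.90 in g1 and 6.63 and 1.45 in g2. The guide libraries again lay below all gCtl libraries, on 10 to 57 counts in a library. On the log2 scale the difference from gCtl was -1.12 ± 0.33 (SE, adjusted p = 0.0248) with both guides, -1.02 ± 0.38 (SE, adjusted p = 0.073) with g1 and -1.30 ± 0.46 (SE, adjusted p = 0.0478) with g2. The call with both guides was lost without gCtl replicate 1 or g1 replicate 3 (log2 fold changes -1.08 to -0.95, adjusted p = 0.053 to 0.0732), and the g2 call without gCtl replicate 1, 2, 3 or 4 or g2 replicate 2 (log2 fold changes -1.33 to -0.54, adjusted p = 0.0669 to 0.423) and with only gCtl and g2 in the fit (adjusted p = 0.0597). DPM2, the regulatory subunit, was not called and stood at 0.25 (adjusted p = 0.513), with 98.1% of its counts on a transcript annotated as a retained intron.

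ALG9 (ENSG00000086848.14, chromosome 11, 111782195 to 111871581), a mannosyltransferase of the later steps, was called with g2. It was at 31.7, 43.5, 37.3, 37.3 and 44.2 CPM in gCtl, 39.2, 27.4 and 33.5 in g1 and 25.1 and 23.7 in g2. Both g2 libraries lay below all others. Relative to gCtl the log2 fold change was -0.67 ± 0.19 (SE, adjusted p = 0.0177) with g2, a call that was lost without g2 replicate 2 (log2 fold change -0.63, adjusted p = 0.105), and -0.22 ± 0.16 (SE, adjusted p = 0.367) with g1, and the difference between the guides did not pass the test (adjusted p = 0.218). A transcript annotated as a processed transcript held 69.4% of its counts. The remaining sugar transferases were not called with both guides, at log2 fold changes of -0.40 for ALG8, -0.32 for ALG3, -0.27 for ALG6, -0.19 for ALG5, 0.16 for ALG1 and 0.18 for ALG2. ALG8, which adds the second glucose, had an adjusted p of 0.0437 but was under 1.5-fold. Of the counts of ALG1 and ALG3, 98.2% and 99.5% lay on transcripts annotated as a processed transcript and as subject to nonsense-mediated decay.

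Of the enzymes that trim glucose, MOGS (ENSG00000115275.11, chromosome 2, 74461057 to 74465410), glucosidase I, which removes the outermost glucose, was called lower with both guides. MOGS was at 20.7, 15.8, 25.3, 28.2 and 12.3 CPM in gCtl, 11.7, 12.9 and 11.8 in g1 and 14.3 and 8.58 in g2. The gCtl replicate 5 overlapped the guide libraries, which were otherwise lower. The log2 fold change was -0.79 ± 0.23 (SE, adjusted p = 0.0221) with both guides, -0.75 ± 0.27 (SE, adjusted p = 0.0564) with g1 and -0.84 ± 0.31 (SE, adjusted p = 0.0571) with g2, so that neither guide alone passed, and the call with both guides was lost without gCtl replicate 3 or 4 (log2 fold changes -0.70 to -0.65, adjusted p = 0.0636 to 0.0721). GANAB and PRKCSH, the catalytic and beta subunits of glucosidase II, stood at -0.35 and 0.09 and were not called. For each, 1 transcript annotated as subject to nonsense-mediated decay held most counts, 82.1% for GANAB and 55.1% for PRKCSH. Coding transcripts held 3.02% and 30.1%.

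Summed over all 45 members, the level was 3637 to 3986 CPM in the gCtl libraries, 2979 to 3547 in g1 and 2962 and 3007 in g2, so no guide library reached a gCtl library. As means this was 3838 ± 128.7 (SD, n = 5), 3338 ± 312 (SD, n = 3) and 2985 ± 31.7 (SD, n = 2), or 87.0% of gCtl in g1 and 77.8% in g2. With library totals in place of TMM these were 84.6% and 69.6%. The sum follows the genes with the most counts, among them RPN2 and SRP14, which were not called. By group the translocon summed to 842 to 998 CPM in gCtl, 795 to 829.7 in g1 and 681 and 747 in g2, and the oligosaccharyltransferase to 968 to 1076, 694 to 929.8 and 748 and 826. In both groups every guide library was below every gCtl library. The same held, narrowly, for glucose trimming, at 39.11 to 58.77 CPM in gCtl, 32.16 to 39.02 in g1 and 36.58 and 35.18 in g2. Signal peptidase summed to 451 to 539 in gCtl, 378 to 431 in g1 and 451 and 385 in g2, where g2 replicate 1 reached gCtl replicate 3. The dolichol pathway summed to 513 to 544, 435 to 531 and 405 and 409.9, and SRP with its receptor to 742 to 885, 639.6 to 843 and 641 and 603. For these 2 groups g1 overlapped gCtl and g2 did not. No test was made of these sums.

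**Figure D4:**
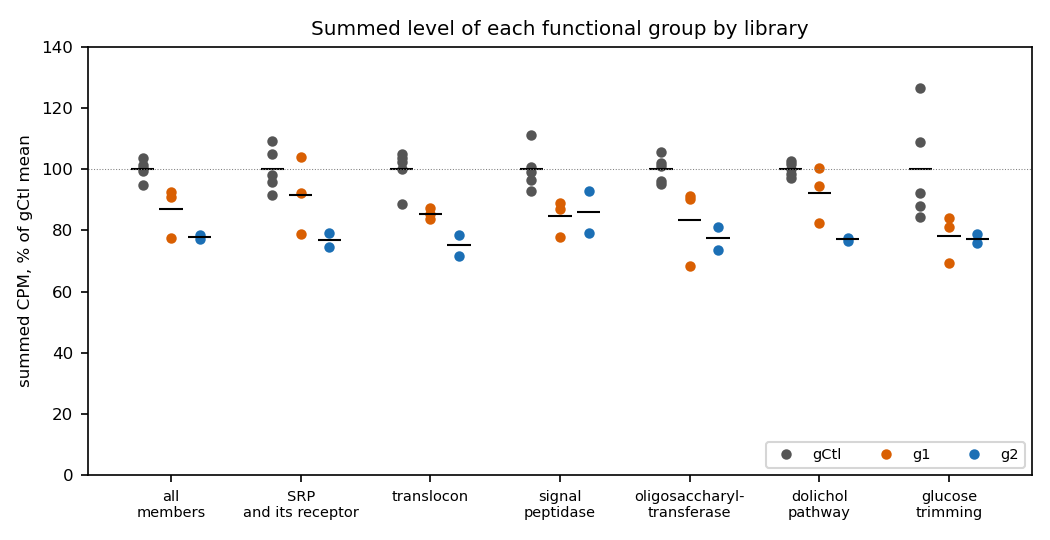
Summed CPM of each functional group and of all 45 members (y axis, percent of the gCtl mean) in each library, where points are libraries and bars are group means. For all members the g1 mean lies at 87.0% and the g2 mean at 77.8%, and glucose trimming, the group with the fewest reads, has the widest gCtl spread.

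Fold changes moved with transcript length in these data. Genes were divided by transcript length into 10 equal classes. Over the class with the shortest transcripts (lengths weighted by counts, up to 1047 bases) the median log2 fold change with both guides was -0.30 and 27.1% of genes were called lower, while in the longest class the median was 0.18 and 4.38% were called lower. The members SRP14, SEC61B, SEC61G, SSR4, SEC11A, SEC11C, DAD1, DPM3 and ALG8 were in the shortest class, and 6 of these 9 were called lower (66.7%), with a median of -0.76. Of the 34 other tested members 7 were called lower (20.6%, against 9.25% of all genes of those lengths), with a median of -0.28 against 0.05. With the trend on length removed from each library before the fit, 6 of the 43 members stayed called with both guides. They were SRPRB, SSR3, SPCS1, RPN1, DPAGT1 and MOGS, all lower. In that fit 2076 of all 11640 genes were called, 53% of them lower. The log2 fold change was then -1.15 (adjusted p = 0.0551) for SEC61G, -0.96 (adjusted p = 0.122) for SEC61B, -0.20 (adjusted p = 0.364) for SSR4, -0.57 (adjusted p = 0.0383) for SEC11A, -0.32 (adjusted p = 0.334) for DAD1, -0.49 (adjusted p = 0.0434) for DPM1, -0.55 (adjusted p = 0.207) for DPM3 and 0.58 (adjusted p = 0.0307) for ALG14, whose transcript is in the longest class. None of these 8 turned direction, and SEC11A, DPM1 and ALG14 kept an adjusted p under the threshold but fell under the fold minimum. With g1, 6 of 7 calls were kept, SEC61G at -1.80 (adjusted p = 0.00919) among them, and that of DAD1 was lost at -0.53 (adjusted p = 0.168). Of all 11640 genes, 1850 were then called with g1, 55.9% of them lower, against 1951 before the trend was removed. With g2, 6 of 9 calls were kept, among them SEC11A at -1.05 (adjusted p = 0.000847) and ALG14 at 0.89 (adjusted p = 0.00252). Of all 11640 genes, 2541 were then called with g2, 50.9% of them lower, against 2756 before the trend was removed. The 3 lost with g2 were SSR4 at -0.45 (adjusted p = 0.085), DPM3 at -0.75 (adjusted p = 0.198) and ALG9 at -0.52 (adjusted p = 0.0582). What sets the trend on length was not tested.

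**Figure D5:**
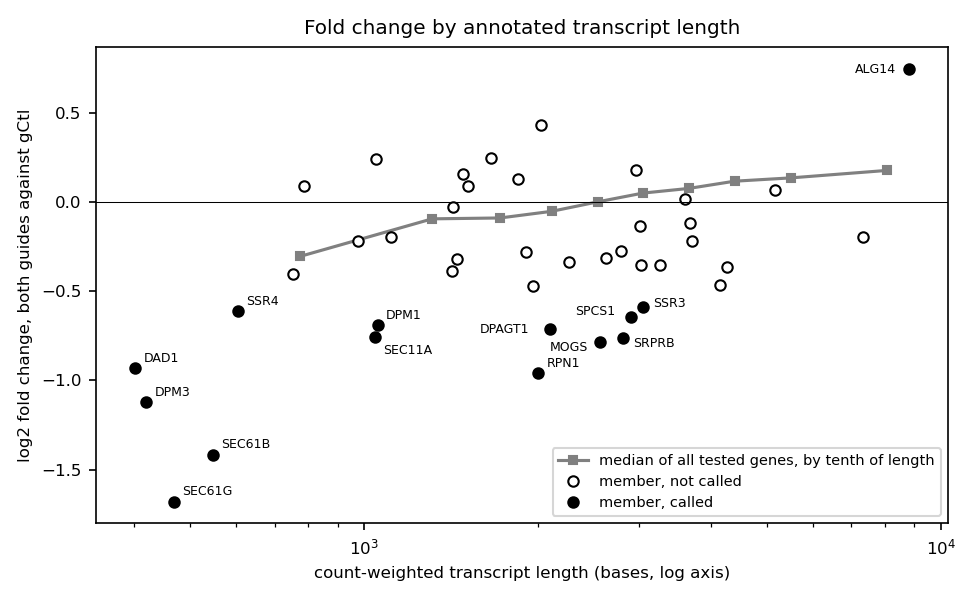
Log2 fold change with both guides (y axis) against count-weighted transcript length in bases (x axis, log scale) for the 43 members, filled where called, with squares for the median of all tested genes in each of 10 classes of length. The medians rise from -0.30 in the shortest class to 0.18 in the longest, and SEC61G, SEC61B, DPM3, DAD1 and SSR4 lie below the line at its short end.

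Other genes of the pathway were taken from 5 lists. Of 23 further ER entry genes tested (SRP19, the TRAM proteins, the tail-anchor and EMC insertion machinery, chaperones of the lumen), 3 were called lower and 1 higher with both guides (13% and 4.35%, against 11.0% and 8.14% of all genes), so the lower share was near that of all genes, and the median was -0.18. EMC10 rose, at 1.38 ± 0.27 (SE, adjusted p = 0.00248), and EMC7 fell, at -1.41 ± 0.28 (SE, adjusted p = 0.00261), both being subunits of the complex that inserts membrane segments. Of 23 further genes of the N-glycan precursor and transferase, 5 were lower and 1 higher (21.7% and 4.35%), with a median of -0.09. Among them OST4, a very small subunit of the oligosaccharyltransferase, had a log2 fold change of -1.56 ± 0.30 (SE, adjusted p = 0.00219), and DOLPP1, which recycles dolichol, had one of -2.06 ± 0.47 (SE, adjusted p = 0.00632). DOLPP1 held 3 to 25 counts in a library and passed the filter through gCtl libraries alone, so a fall was the direction the filter favoured. Its gCtl replicate 5, at 1.41 CPM, lay among the guide libraries at 0.58 to 1.79. The calls of EMC10, EMC7 and OST4 held under all 21 alternatives run, and that of DOLPP1 under the 20 in which it was tested.

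Downstream of the transferase, 0 of 15 genes of glycoprotein folding and mannose trimming, calnexin and calreticulin among them, were called by edgeR or DESeq2 with both guides. By edgeR 11.0% of all genes were called lower and 8.14% higher. Of the 15, 1, higher, had an unadjusted p under 0.05 with either tool. Their median log2 fold change was -0.12, and 11 of the 15 lay below 0. In the Golgi, 3 of 14 genes were lower and 2 higher (21.4% and 14.3%, against 11.0% and 8.14% of all genes). The 3 lower were MGAT4B, MAN2A2 and SLC35A2. MGAT4B fell by a log2 fold change of -0.81 ± 0.22 (SE, adjusted p = 0.0151), with all 5 guide libraries below all 5 gCtl libraries. The 2 higher were MGAT4A and MGAT5, which add branches to N-glycans. The level of MGAT4A was 43.4 ± 4.96 (SD, n = 5) CPM in the gCtl libraries, 90.1 ± 12.6 (SD, n = 3) in g1 and 85.3 ± 0.115 (SD, n = 2) in g2. It rose by a log2 fold change of 1.03 ± 0.13 (SE, adjusted p = 0.000132), and MGAT5 by one of 0.81 ± 0.19 (SE, adjusted p = 0.00631). For both genes all 5 guide libraries lay above all 5 gCtl libraries. The call of MGAT5 was lost when tested against a 1.5-fold change itself.

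Of 12 ER stress targets tested, 1 was called lower with both guides (8.33%, against 11.0% of all genes), MANF, a secreted ER protein, at -1.17 ± 0.27 (SE, adjusted p = 0.00693), and the median was -0.29. With g1, 3 were lower (25%, against 9.95% of all genes), namely MANF at -1.52 ± 0.29 (SE, adjusted p = 0.00208), PDIA4, a disulfide isomerase of the ER, at -0.74 ± 0.16 (SE, adjusted p = 0.00524) and XBP1, a transcription factor of the stress response, at -0.83 ± 0.21 (SE, adjusted p = 0.0107). With g2, 2 were lower (16.7%, against 13.0%), the co-chaperone DNAJB11 at -0.74 ± 0.16 (SE, adjusted p = 0.00448) and CRELD2 at -1.18 ± 0.27 (SE, adjusted p = 0.00582). Of all genes of the 5 lists, 3 were called between the guides. They were 1 of the ER entry list (4.35%), 1 of the N-glycan precursor list (4.35%) and 1 of the ER stress targets (8.33%). Of all genes tested, 4.98% were called between the guides. HSPA5, the main chaperone of the ER lumen, which stands in the ER entry list, was at 797, 827, 853, 817 and 886 CPM in gCtl, 1137, 1220.0 and 1226 in g1 and 748 and 522 in g2. All g1 libraries lay above and both g2 libraries below every gCtl library. Its log2 fold change was 0.51 ± 0.14 (SE, adjusted p = 0.0157) with g1, under 1.5-fold, -0.40 ± 0.16 (SE, adjusted p = 0.0824) with g2 and -0.91 ± 0.18 (SE, adjusted p = 0.00813) for g2 against g1. For g2 against g1, PDIA4 was higher at 0.81 ± 0.20 (SE, adjusted p = 0.0256) and GMPPB, which makes the mannose donor GDP-mannose, lower at -1.37 ± 0.25 (SE, adjusted p = 0.00524). The call of XBP1 was lost without g1 replicate 3 (adjusted p = 0.0525), those of DNAJB11 and HSPA5 without g2 replicate 2 (adjusted p = 0.0501 and 0.0562), and that of PDIA4 between the guides with library totals, with limma and without g1 replicate 2 or 3 or g2 replicate 1 (adjusted p = 0.0535 to 0.0614). Tested against a 1.5-fold change itself, MANF with g1 was the 1 call of this paragraph that was kept.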

How the data were processed

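Per the labels, RNA of 10 Caco-2 samples was made into Lexogen QuantSeq 3' single-end libraries, and the authors quantified transcripts with kallisto (version given as 42.5 in the submitters' processing notes). The annotation, read from the deposited identifiers, was GENCODE on GRCh38. The deposited values are estimated counts per transcript, not normalized or pooled. They were summed per gene, and for tests rounded. Genes with a protein-coding transcript and RPM above 3 in at least 20% of libraries were fitted with edgeR 4.0.16 in R 4.3.3 (TMM, glmQLFit, glmQLFTest, Benjamini-Hochberg), once with g1 and g2 as 1 group and once with 3 groups that share 1 estimate of the spread, since g2 has 2 libraries. Thresholds were an adjusted p of 0.05 and a fold of 1.5. The 45 members and the further lists were chosen with earlier results of these data known, so no list was tested and counts stand beside those over all genes.

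All members are named. Values in every library are given for members called in any comparison, and for further lists at most the 2 called genes with the lowest p with both guides. ER stress targets called with 1 guide, further genes called between the guides, and the markers KRT18 and KRT20 were named after their values were seen. So were the Golgi genes MGAT4B, MAN2A2 and SLC35A2 and the oligosaccharyltransferase subunits KRTCAP2 and TMEM258. STT3A, SEC11C and ALG2 have theirs as partner, alternative or neighbour of such genes, and this choice was made after their values were seen. Depth, at 3838803 to 8730468 estimated counts per library, limits genes such as SEC61B and DPM3. Limits given for 0 counts cover counting error only. Coordinates are of GENCODE v29 on GRCh38 (45 of 45 symbols matched), and promoter windows of RefSeq. The programs were tested on simulated data. Alternatives were DESeq2 1.42.0, limma 3.58.1 on log2(RPM + 1), other scalings, filters and thresholds, removal of a trend on transcript length (lowess, span 0.3), pseudogene counts added and each library left out.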

Additional observations from a re-analysis of the deposited data

Results flagged for a closer look

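Of the results, 3 values stood out by fixed rules, and no explanation of them was tested. Of the 43 tested members, 1 had a gCtl library far from the other 4, where chance gives about 1 in 20. In PRKCSH, the beta subunit of glucosidase II, gCtl replicate 3 was at 19.4 CPM and the others at 11.6 to 13.2 CPM, so that the gap was 0.743 of the whole range (the limit for 5 libraries is 0.71). PRKCSH was not called in any comparison. The effects of the guides differed, by the test of g2 against g1 in the fit of 3 groups, for SEC61A1 (log2 fold change -0.91) and for SEC11A (-0.78). Both were lower with g2, which has 2 libraries. These 2 are 4.65% of the 43 tested members, where 4.98% of all genes were called between the guides in either direction. Each of the 2 calls was lost under some of the alternatives, as given above.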

How the results depend on the processing

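No paired analysis was possible because the labels carry no replicate numbers. Tested against a 1.5-fold change itself (glmTreat), 0 of the 43 members were called with both guides (6 had an unadjusted p under 0.05), 1 with g1, 2 with g2 and 0 between the guides (1 had an unadjusted p under 0.05). Of all 11640 genes, that test called 488, 506, 802 and 92 in these comparisons. DESeq2 called 13 members with both guides, and 2426 of all genes. With the trend on transcript length removed, 6 members were called with both guides, and 2076 of all genes. For g2 the count was 19 with library totals and 18 with limma on log2(RPM + 1), where 2811 and 2780 of all genes were called. Both settings shift the median of all genes (to -0.16 and -0.15, from -0.0017), and under library totals the median of the members with g2 was -0.63. Library totals moved the share of lower genes among all genes called from 57.5% to 69.4% with both guides, from 54.9% to 73.3% with g2 and from 68.6% to 83.4% between the guides. Between the guides 1 member was called with DESeq2's size factors in edgeR and 1 with the upper quartile, where 550 and 576 of all genes were called. With single libraries left out the count ran from 9 to 15 with both guides (9 without gCtl replicate 1), from 6 to 11 with g1 (11 without gCtl replicate 5), from 7 to 14 with g2 (14 without g2 replicate 1) and from 0 to 4 between the guides (0 without g1 replicate 1 or 2, 4 without g2 replicate 1). Over all genes, the count with single libraries left out ran from 1702 to 2425 with both guides and from 1249 to 2262 with g1. With single gCtl libraries left out it ran from 2274 to 2937 with g2. Between the guides it was 266, 314 and 548 without g1 replicate 1, 2 and 3, against 580 with all libraries. Runs without a g2 library leave 1 in that group, so their counts cannot be read as a trait of the members. The median log2 fold change of the members with g2 was -0.47 with all libraries. It was -0.44 without g2 replicate 1 and -0.43 without g2 replicate 2. No called member changed direction under any alternative run. Members with few counts, among them SEC61B, DPM3 and DAD1, had the widest standard errors. Where a group was left with 1 library, that library was assumed to vary like the others.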
